A study of Homo sapiens with 12 samples.

Results

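The kinase MTOR and 9 genes around it were examined in primed and naive human embryonic stem cells: the mTOR complex subunits RPTOR, RICTOR, AKT1S1, DEPTOR and MLST8, the upstream inhibitors TSC1, TSC2 and DDIT4, and the translational repressor EIF4EBP1. The members were chosen by symbol, with earlier results of these data known. All 10 were present among the 23613 gene symbols used, and all 10 reached at least 1 FPKM (fragments mapped to a gene, scaled to its transcript length and to the library's size) in at least 3 of the 12 libraries, the level required for testing. In H9 cells DDIT4 was the member that differed most between the states, at 76.7 ± 8.98 FPKM in primed and 16.9 ± 3.12 FPKM in naive cells (SD, n = 3). RICTOR was also lower in naive H9 cells, RPTOR and AKT1S1 were higher, and EIF4EBP1 was slightly lower. MTOR itself, MLST8, DEPTOR, TSC1 and TSC2 did not pass the test between states in either line.

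mTOR is a serine/threonine kinase that works in complexes of different composition. mTORC1, defined by RPTOR, sits on the lysosome when amino acids are present and promotes protein, lipid and nucleotide synthesis, whereas mTORC2, defined by RICTOR, phosphorylates AKT and related kinases. The TSC1-TSC2 complex holds back the small GTPase RHEB, the direct activator of mTORC1, and DDIT4 (also called REDD1) is a stress-induced protein that acts through the TSC complex. In embryos and in pluripotent cells mTOR activity is known to govern growth and proliferation, and its inhibition is known for a pausing of development.

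The cells were the human embryonic stem cell lines H9 and RUES-2, each in a primed and a naive state, with 3 libraries per group and 12 in all. Primed cells of both lines were grown on mitomycin C-treated mouse embryonic fibroblasts in medium with knockout serum replacement and 4 ng/mL bFGF, at passages 31 to 35 for H9 and 30 to 33 for RUES-2. For naive cells the labels give passages 27 to 31 for H9 and 24 to 26 for RUES-2. The labels' protocol for naive cells names 5 mM glucose, 18 ug/mL insulin, 20 ng/mL LIF, 1 uM of the MEK inhibitor PD0325901 and 3 uM of the GSK3 inhibitor CHIR99021. The series title concerns transient inhibition of mTOR, but the labels name no mTOR inhibitor in either medium. Whether the naive cells were exposed to one earlier cannot be told from the media named. No group here is labelled as a comparison with and without such an inhibitor. The protocol for naive cells names no feeder cells and a shorter interval between passages. Medium, feeder, passage and state differ together and cannot be told apart. Colonies were picked by hand and poly(A) RNA was sequenced. The submitters describe 3 biological replicates per group and do not state whether these were separate cultures; p-values therefore reflect the spread among the libraries in hand, which may be technical.

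The DNA before the start sites of the members that changed in both lines was read from RefSeq on build GRCh38.p14, which held a promoter entry for DDIT4, RICTOR and RPTOR. The 250 bases upstream of each start are shown 5′ to 3′ in the direction of transcription. AKT1S1 was also called in both lines but had no promoter entry in the set used. Capitals mark the core of the hypoxia-response element, ACGTG or GCGTG, on either strand; a match on the opposite strand reads as CACGC or CACGT. DDIT4 lies at chr10:72273674-72273923 (plus strand), RICTOR at chr5:39074400-39074649 (minus strand) and RPTOR at chr17:80544588-80544837 (plus strand).
DDIT4: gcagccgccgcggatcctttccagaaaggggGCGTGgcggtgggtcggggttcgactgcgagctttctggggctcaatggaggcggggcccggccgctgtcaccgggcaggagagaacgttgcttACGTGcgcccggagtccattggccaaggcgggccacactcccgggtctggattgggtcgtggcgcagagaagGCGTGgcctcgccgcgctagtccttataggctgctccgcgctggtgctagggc
RICTOR: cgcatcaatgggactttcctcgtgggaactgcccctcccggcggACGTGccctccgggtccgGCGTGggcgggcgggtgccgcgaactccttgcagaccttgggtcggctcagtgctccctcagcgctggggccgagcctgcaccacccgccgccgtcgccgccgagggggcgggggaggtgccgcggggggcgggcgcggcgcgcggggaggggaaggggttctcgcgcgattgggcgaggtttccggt
RPTOR: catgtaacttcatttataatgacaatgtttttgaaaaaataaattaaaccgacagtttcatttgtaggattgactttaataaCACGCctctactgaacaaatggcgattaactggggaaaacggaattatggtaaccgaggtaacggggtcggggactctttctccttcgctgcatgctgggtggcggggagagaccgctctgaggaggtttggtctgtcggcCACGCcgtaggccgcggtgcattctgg

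Counted over 250 bases before to 50 after the start, the DDIT4 window held 4 matches to the hypoxia core, at -219, -125, -53 and 26, all on the coding strand; the last lies outside the stretch shown. RICTOR held 2 matches at -206 and -188, and RPTOR held 2 on the opposite strand at -168 and -27. MTOR held 1 match and TSC1 none. At least 1 such match was present in 48.4% of the 35116 promoters in the table, so a match by itself does not set these genes apart. The share of promoters with as many matches as DDIT4 was not counted. The windows of DDIT4, RICTOR and RPTOR were 69.7%, 74.0% and 48.0% G or C, beside a median of 58.7% over all promoters. The E-box CACGTG, the core read by MYC and TFE family factors, was found in 7.26% of all promoters. Among the 6 members whose promoters were searched it was found in TSC2 alone, at -114 in 1 of its 2 entries. It overlaps the hypoxia core there. Promoters of the other members were not searched. TGATGNAAN, a form of the ATF4 motif, was found in 3.61% of all promoters. Among the same 6 members it was again found in TSC2 alone, at -110, overlapping the E-box. These matches are letters in a window, not measured binding.

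The deposited values per library summed to 754195 to 986124 FPKM, with 12681 to 13592 genes at 1 FPKM or more. Read counts are not in the tables, but the confidence bounds, read as 2 SD of counting error, imply that a gene at 1 to 2 FPKM typically (median) rested on 47.8 to 112 fragments, depending on the library. On that reading DEPTOR rested on 23.7 to 198 fragments per library and the other members on at least 315, so DEPTOR is the least precisely measured. In a check of genes whose level depends on the cells' genotype, 3 of the 12 libraries did not match the others, 0 of them labelled H9 and 3 labelled RUES-2. State and line therefore cannot be told apart in comparisons that use naive cells labelled RUES-2, and RUES-2 is used below as a label only. Without these 3 libraries the RUES-2 state comparison, the mean of both lines, the naive line comparison and the difference between lines could not be fitted. In H9 the same 5 members were then called, with limma adjusted p-values of 0.0266 for RPTOR, 0.00135 for RICTOR, 0.0329 for AKT1S1, 0.00315 for DDIT4 and 0.00513 for EIF4EBP1. All 10 pluripotent stem cell markers were at 1 FPKM or more in every group, with sums of 2300 to 2830 FPKM in primed H9, 1390 to 1440 in naive H9, 2310 to 2750 in primed RUES-2 and 1310 to 1510 in naive RUES-2 libraries. Of 12 fibroblast markers, 8 reached 1 FPKM in each primed group and 11 in each naive group. Their sums were 137 to 218 FPKM in primed H9, 398 to 637 in naive H9, 83.4 to 192 in primed RUES-2 and 217 to 1160 in naive RUES-2, and FAP was at 0 in all primed libraries. THY1 and S100A4 went against these sums: THY1 averaged 112 FPKM in primed and 21.2 in naive H9, and 73.0 and 11.1 in RUES-2, and S100A4 14.1 and 9.02, and 14.1 and 3.89. Neural ectoderm markers summed to 139 to 164, 287 to 307, 98.8 to 171 and 302 to 352 FPKM in the same order, and trophectoderm or amnion markers to 6.98 to 19.1, 30.0 to 97.7, 31.4 to 39.9 and 22.6 to 63.0. TUBB3, MAP2 and OLIG3 averaged higher in naive cells of both lines, TUBB3 going from 87.0 to 174 FPKM in H9 and from 75.4 to 247 in RUES-2. PAX6 averaged lower in both, and SOX1 and NES lower in RUES-2 only. HAND1, CDX2 and ISL1 averaged higher in naive cells of both lines and KRT7 lower, while GATA3, GATA2, TFAP2A and IGFBP3 averaged lower in RUES-2 only. The part of these cells in the results below was not tested, and in bulk RNA fewer cells of a type and less RNA per cell cannot be told apart.

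Which members of the complexes differ between naive and primed cells was tested with limma on log2(FPKM + 1) in 1 model of all 12 libraries, with Benjamini-Hochberg adjustment over 14428 genes and calls at an adjusted p under 0.05. Changes below are on that log2 scale, which understates the change of genes near 1 FPKM. In H9, 2 of the 10 members were higher in naive cells, against 20.4% of all genes tested, and 3 were lower, against 23.9%. In the libraries labelled RUES-2, 2 were higher, against 23.1%, and 2 were lower, against 23.6%. Averaged over the lines, 2 were higher and 2 lower, against 29.2% and 29.9%. The share of members called was thus near that of genes in general.

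**Figure D1:**
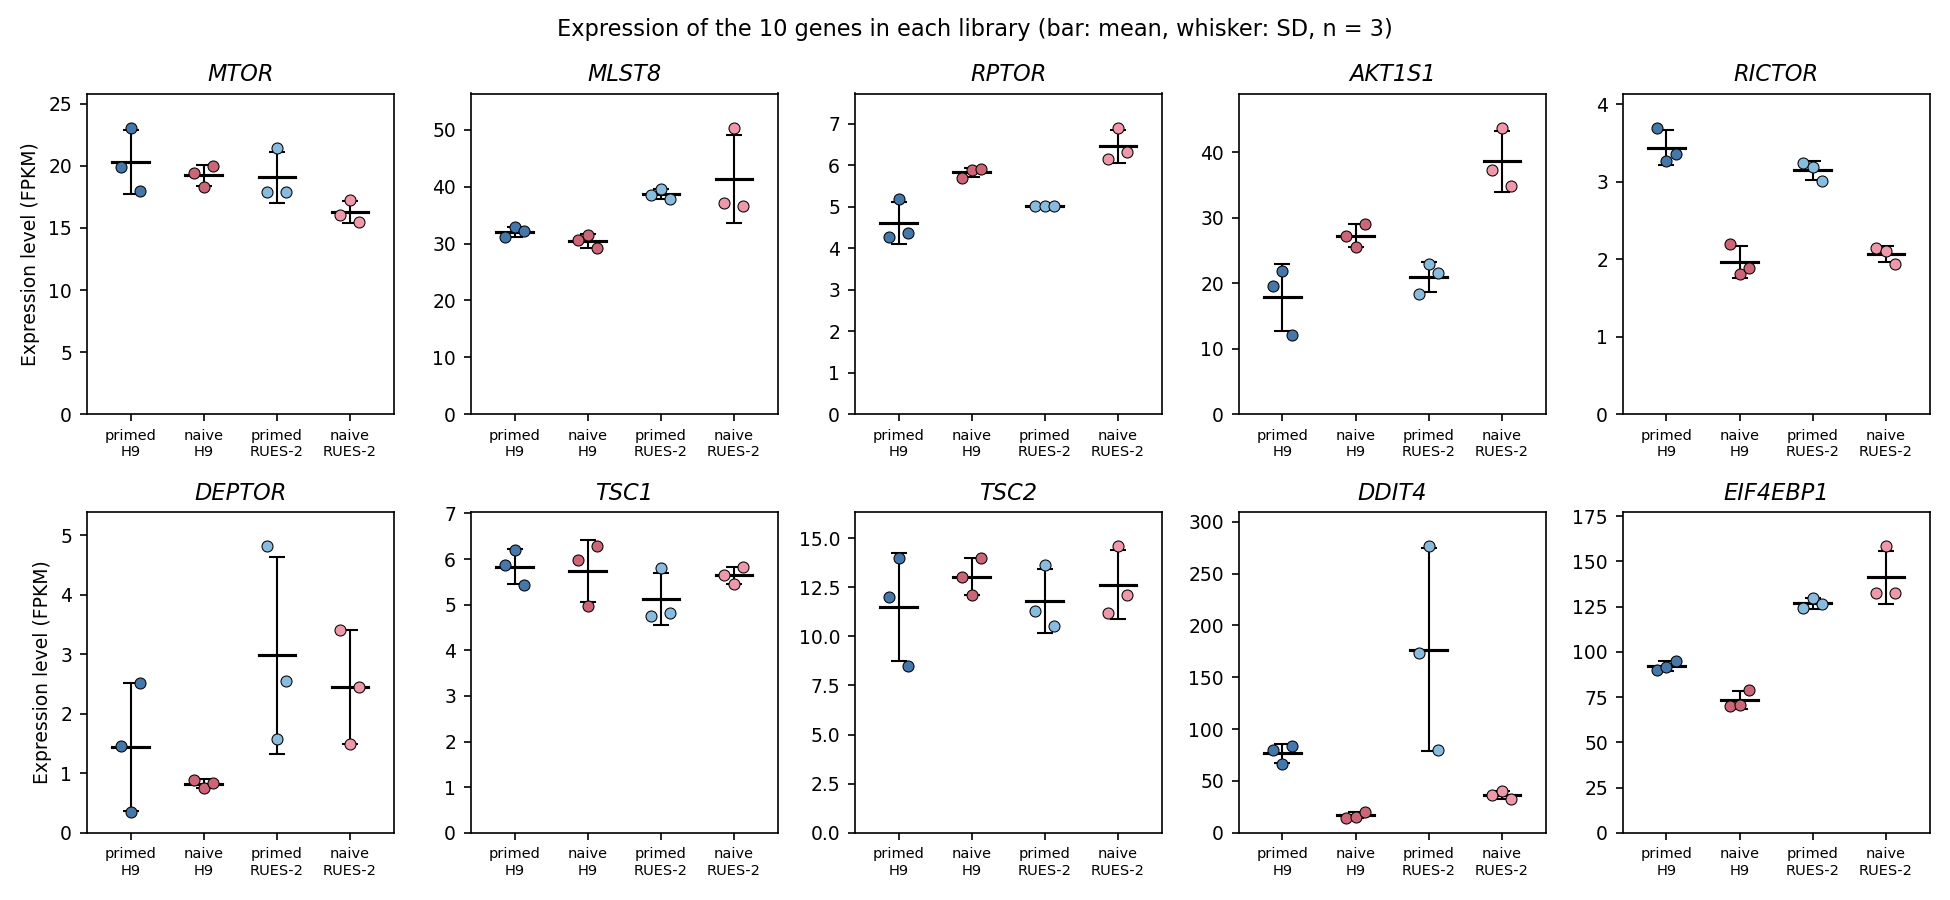
FPKM of each of the 10 members, each panel on its own linear axis from 0, in each of the 12 libraries, in columns for primed H9, naive H9, primed RUES-2 and naive RUES-2. Points are libraries, bars are group means and whiskers are the SD of 3 libraries. DDIT4 spans 14.7 to 276 FPKM, while TSC1 stays between 4.76 and 6.28 FPKM.

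The catalytic core, shared by both complexes, did not pass the test between states. MTOR, the kinase, measured 19.9, 23.1 and 18.0 FPKM in primed H9 and 19.4, 18.3 and 20.0 in naive H9. It measured 17.9, 21.4 and 17.9 FPKM in primed RUES-2 and 16.1, 17.3 and 15.5 in naive RUES-2. The H9 states overlapped and the naive RUES-2 libraries all lay below the primed ones, but the change was -0.07 in H9 (95% interval -0.29 to 0.15; limma adjusted p = 0.607) and -0.21 in RUES-2 (-0.43 to 0.01; 0.108). MLST8, the small WD-repeat subunit that stabilises the kinase domain, measured 31.2, 33.0 and 32.2 FPKM in primed H9 and 30.6, 31.6 and 29.2 in naive H9. The RUES-2 values of MLST8 were 38.6, 39.6 and 37.9 FPKM in primed and 37.1, 50.3 and 36.7 in naive libraries. The states overlapped in both lines, and the changes were -0.08 (-0.31 to 0.16; limma adjusted p = 0.589) in H9 and 0.08 (-0.15 to 0.31; 0.564) in RUES-2. The deposited MTOR locus (hg19 chromosome 1, 11166588 to 11322608) overlaps MTOR-AS1 over 5641 bases and ANGPTL7 over 6641, and that of MLST8 (chromosome 16, 2255178 to 2259418) overlaps BRICD5 over 165. Strandedness is not given, so reads of overlapping genes may be exchanged; MTOR-AS1 stood at 1.52 to 1.71 FPKM in the group means, ANGPTL7 at no more than 0.184 in any library, and BRICD5 at 4.20 to 4.73 in the group means.

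The subunits particular to mTORC1 were higher in naive cells. RPTOR, the scaffold that recruits substrates to mTORC1 (chromosome 17, 78518625 to 78940173), measured 4.27, 5.19 and 4.37 FPKM in primed H9 and 5.70, 5.88 and 5.90 in naive H9. For RPTOR the RUES-2 values were 5.02, 5.00 and 5.02 FPKM in primed and 6.15, 6.90 and 6.32 in naive libraries. Every naive library lay above every primed one, in both lines. RPTOR rose by 0.29 (SE 0.079; limma adjusted p = 0.0143) in H9 and by 0.31 (SE 0.079; 0.00928) in RUES-2. The H9 call ended without primed H9 replicate 1 (adjusted p = 0.0530) and when only the 6 H9 libraries were fitted (0.0521).

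AKT1S1, also called PRAS40, an mTORC1 subunit that inhibits the kinase until AKT phosphorylates it, is encoded on chromosome 19 (50372297 to 50380644). It measured 19.7, 21.8 and 12.04 FPKM in primed H9 and 27.2, 25.6 and 29.1 in naive H9. AKT1S1 in RUES-2 stood at 18.4, 23.0 and 21.5 FPKM in primed and 37.3, 43.7 and 34.8 in naive libraries. The states did not overlap in either line. AKT1S1 rose by 0.63 (SE 0.184; limma adjusted p = 0.0190) in H9 and by 0.85 (SE 0.184; 0.00369) in RUES-2. In H9 the call ended without naive H9 replicate 3 (adjusted p = 0.0619) and with only the 6 H9 libraries (0.0607), and without primed H9 replicate 3, the lowest library, the change fell to 0.38.

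RICTOR, the scaffold that defines mTORC2 (chromosome 5, 38938022 to 39074501), moved the other way. It measured 3.70, 3.26 and 3.36 FPKM in primed H9 and 2.20, 1.81 and 1.88 in naive H9. RICTOR in RUES-2 stood at 3.24, 3.20 and 3.01 FPKM in primed and 2.14, 2.11 and 1.95 in naive libraries. No naive library reached the lowest primed value of 3.01. RICTOR fell by 0.58 (SE 0.082; limma adjusted p = 0.000306) in H9 and by 0.44 (SE 0.082; 0.00165) in RUES-2. The call held in each fit that left out 1 library, with adjusted p of at most 0.00212 in H9 and 0.00838 in RUES-2.

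DEPTOR, an inhibitor that binds both complexes, varied widely within every group but naive H9. It measured 1.45, 0.354 and 2.51 FPKM in primed H9 and 0.891, 0.745 and 0.839 in naive H9. DEPTOR in RUES-2 stood at 4.82, 1.58 and 2.55 FPKM in primed and 3.41, 1.5 and 2.45 in naive libraries. The primed H9 libraries alone spanned the naive H9 range on both sides, and the deposited bounds of replicate 2, 0.208 to 0.499 FPKM, lay below the values of the other 2. The change was -0.31 (95% interval -1.13 to 0.50; limma adjusted p = 0.516) in H9 and -0.16 (-0.98 to 0.65; 0.747) in RUES-2, so a change of 1 log2 unit downward in H9 lies within the interval.

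The TSC genes, whose products restrain RHEB, showed no difference that passed the test. TSC1 (chromosome 9, 135766735 to 135820020), which stabilises the complex, measured 5.87, 6.20 and 5.43 FPKM in primed H9 and 5.98, 4.98 and 6.28 in naive H9. TSC1 in RUES-2 stood at 4.76, 5.79 and 4.82 FPKM in primed and 5.64, 5.46 and 5.83 in naive libraries. Its highest library was 1.32 times its lowest, the narrowest span of the 10 members. The change was -0.02 (-0.24 to 0.20; limma adjusted p = 0.880) in H9, with a sign that turned under median-ratio and quantile scaling, and 0.12 (-0.10 to 0.34; 0.336) in RUES-2. TSC2 (chromosome 16, 2097990 to 2138713), the subunit that switches RHEB off, measured 12, 14 and 8.50 FPKM in primed H9 and 13, 12.1 and 14 in naive H9. TSC2 in RUES-2 stood at 11.3, 13.7 and 10.5 FPKM in primed and 11.2, 14.6 and 12.1 in naive libraries. The groups overlapped, with changes of 0.19 (-0.17 to 0.55; limma adjusted p = 0.371) and 0.09 (-0.27 to 0.45; 0.686). Its deposited locus shares 3 bases with PKD1.

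DDIT4, induced by hypoxia, DNA damage and glucocorticoids among other stresses, had the widest range of the members, its highest library standing at 18.8 times its lowest. Its locus is small (chromosome 10, 74033677 to 74035797), and the upstream stretch shown above holds 3 of its 4 matches to the hypoxia core. It measured 80.2, 66.5 and 83.4 FPKM in primed H9 and 14.7, 15.7 and 20.5 in naive H9. DDIT4 in RUES-2 stood at 173, 276 and 80.2 FPKM in primed and 36.6, 40.2 and 32.5 in naive libraries. The lowest primed library lay above the highest naive one in both lines, and the primed RUES-2 libraries differed among themselves by more than 3-fold. DDIT4 fell by 2.12 (SE 0.346; 95% interval -2.89 to -1.35; limma adjusted p = 0.000787) in H9 and by 2.08 (SE 0.346; -2.85 to -1.31; 0.000803) in RUES-2. Only 1.42% of the genes tested had a lower change in H9, and 1.5% in RUES-2. Leaving out single libraries gave -2.26 to -2.03 in H9 and -2.56 to -1.67 in RUES-2, each past the threshold.

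EIF4EBP1, which binds the cap-binding protein EIF4E and releases it when mTORC1 phosphorylates it, had the highest mean level of the members in primed H9, naive H9 and naive RUES-2 libraries. It measured 89.7, 91.7 and 95.2 FPKM in primed H9 and 69.9, 70.7 and 79.2 in naive H9. EIF4EBP1 in RUES-2 stood at 124, 130 and 126 FPKM in primed and 133, 158 and 133 in naive libraries. The states did not overlap in either line, but the naive libraries were the lower ones in H9 and the higher ones in RUES-2. EIF4EBP1 fell by 0.33 (SE 0.080; limma adjusted p = 0.00767) in H9, and its change in RUES-2 was 0.15 (SE 0.080; 95% interval -0.03 to 0.33; 0.152).

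**Figure D2:**
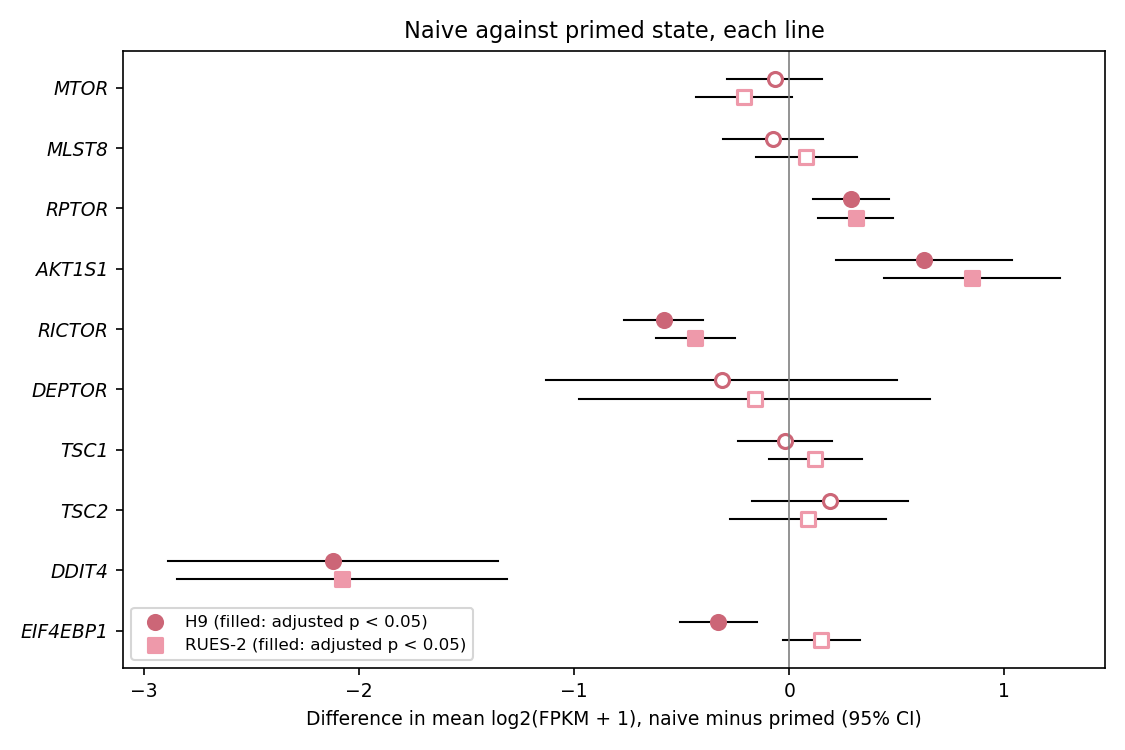
log2 change of the members between naive and primed cells, with 95% intervals from limma, in H9 and in the libraries labelled RUES-2. DDIT4 lies near -2.1 in both, RICTOR below 0, RPTOR and AKT1S1 above 0, and EIF4EBP1 is on opposite sides of 0.

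Counting members whose primed and naive libraries did not overlap gave RPTOR and AKT1S1 higher and RICTOR, DDIT4 and EIF4EBP1 lower in H9, where 27.0% of all genes tested were separated upward and 30.3% downward. In RUES-2 it gave RPTOR, AKT1S1 and EIF4EBP1 higher and MTOR, RICTOR and DDIT4 lower, against 29.0% and 28.3% of genes.

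Because the scaffolds of the complexes moved in opposite directions, the ratio of RPTOR to RICTOR was computed per library, with 3 other ratios of partners. RPTOR to RICTOR was 1.16, 1.59 and 1.30 in primed H9 and 2.59, 3.25 and 3.13 in naive H9. It was 1.55, 1.57 and 1.67 in primed RUES-2 and 2.87, 3.27 and 3.25 in naive RUES-2 libraries. Every naive ratio exceeded every primed one, in both lines, and the mean ratio over lines was 2.09-fold higher in naive cells (exact permutation test within lines, two-sided, 400 arrangements, p = 0.005, the smallest these can give; 0.02 adjusted over the 4 ratios). The ratio rests on the same values as the tests of RPTOR and RICTOR and adds no independent evidence. Because the states were already separated in opposite directions for RPTOR and RICTOR, this p could only take its smallest value. The ratio compares transcripts and does not measure assembled complexes. Tests of all 4 ratios also use the libraries that did not match the others, so line and state cannot be told apart in their RUES-2 part.

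The other ratios did not pass this test, which takes the mean over lines, so that opposite changes in the lines cancel. TSC2 to TSC1 averaged 1.96 ± 0.353 in primed H9, 2.28 ± 0.135 in naive H9, 2.30 ± 0.101 in primed RUES-2 and 2.24 ± 0.372 in naive RUES-2 (SD, n = 3; exact permutation p = 0.465, adjusted 0.465). MLST8 to MTOR averaged 1.60 ± 0.182, 1.59 ± 0.135, 2.04 ± 0.167 and 2.53 ± 0.332 in the same order (SD, n = 3; exact permutation p = 0.165, adjusted 0.33). The 4E-binding proteins EIF4EBP1 and EIF4EBP2 together, over EIF4E, averaged 3.41 ± 0.272, 3.13 ± 0.196, 4.27 ± 0.105 and 5.18 ± 0.524 (SD, n = 3; exact permutation p = 0.4, adjusted 0.465). On the log2 scale MLST8 to MTOR changed by 0.30 and the 4E-binding ratio by 0.27 in RUES-2, where the states did not overlap. In H9, where they did, the changes were -0.006 and -0.12.

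**Figure D3:**
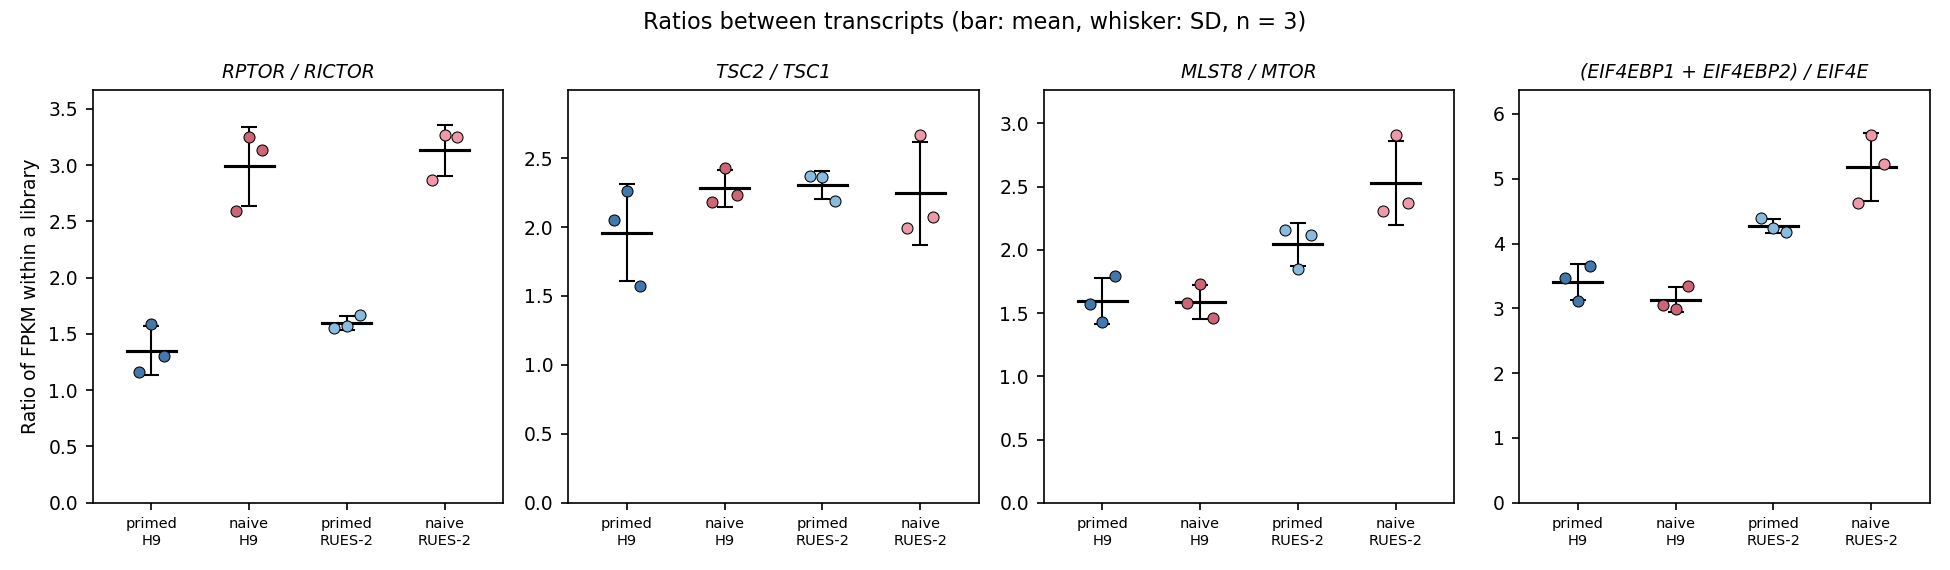
The 4 ratios of FPKM values in each library by group, with group means. RPTOR to RICTOR lies between 1.16 and 1.67 in all primed libraries and between 2.59 and 3.27 in all naive ones, and the other ratios overlap between states in at least 1 line.

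Whether the change between states differed between the lines was tested as an interaction. EIF4EBP1 alone among the members passed, with a difference (RUES-2 minus H9) of 0.48 (SE 0.114; limma adjusted p = 0.0368), 1 member higher and 0 lower against 3.77% and 1.93% of all genes. The call was lost without any 1 of 9 of the 12 libraries, with adjusted p from 0.0364 to 0.102 over all 12 such fits. It was also lost under median-ratio scaling (0.0524) and scaling without short RNA genes (0.0674), and it uses the libraries that did not match the others. For the other members the interval of the difference included 0, as for DDIT4, 0.04 (95% interval -1.05 to 1.13), RICTOR, 0.15 (-0.11 to 0.41), and AKT1S1, 0.23 (-0.35 to 0.80).

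The lines were also compared within each state. Among primed cells EIF4EBP1 was higher in RUES-2 than in H9 by 0.46 (SE 0.080; limma adjusted p = 0.0247), 1 member higher and 0 lower against 1.34% and 0.471% of genes. This call ended without primed H9 replicate 1 (adjusted p = 0.0812), primed RUES-2 replicate 1 (0.0875) or primed RUES-2 replicate 3 (0.0543), and with only those 6 libraries (0.13), although the lowest primed RUES-2 library, 124 FPKM, lay above the highest primed H9 one, 95.2 FPKM. Among naive cells EIF4EBP1 was higher in the libraries labelled RUES-2 by 0.93 (SE 0.080; adjusted p = 0.000109) and MLST8 by 0.42 (SE 0.105; 0.0240), 2 members higher and 0 lower against 11.2% and 4.69% of genes. The MLST8 call ended without naive H9 replicate 1, 2 or 3 (0.0743, 0.0571 and 0.0821), with only those 6 libraries (0.0650) and under scaling without short RNA genes (0.0727), and without naive RUES-2 replicate 2 its value was 0.27. DDIT4 was 1.03 higher in RUES-2 among primed cells (limma adjusted p = 0.200) and 1.07 among naive cells (0.0625), neither past the threshold.

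The members' mean levels were ordered on the FPKM scale, which is per length. In primed H9 EIF4EBP1 (92.2 ± 2.77) and DDIT4 (76.7 ± 8.98) stood highest, followed by MLST8 (32.1 ± 0.876), MTOR (20.3 ± 2.56), AKT1S1 (17.8 ± 5.13) and TSC2 (11.5 ± 2.77), and MTOR and AKT1S1 differed by less than their spread. TSC1 (5.83 ± 0.385), RPTOR (4.61 ± 0.503), RICTOR (3.44 ± 0.228) and DEPTOR (1.44 ± 1.08) stood lowest (all SD, n = 3). In naive H9 DDIT4 (16.9 ± 3.12) stood below MLST8 (30.4 ± 1.21) and AKT1S1 (27.3 ± 1.77) and did not differ from MTOR (19.2 ± 0.868) beyond its spread, AKT1S1 stood above MTOR, and RPTOR (5.83 ± 0.112) and TSC1 (5.75 ± 0.681) differed by less than their spread. In primed RUES-2 DDIT4 (177 ± 98.1) had a higher mean than EIF4EBP1 (127 ± 2.99), by less than the spread of DDIT4. In naive RUES-2 EIF4EBP1 (141 ± 14.7) stood highest, and MLST8 (41.4 ± 7.76), AKT1S1 (38.6 ± 4.61) and DDIT4 (36.4 ± 3.85) did not differ beyond their spread. At the low end of that group DEPTOR (2.45 ± 0.954) and RICTOR (2.07 ± 0.107) also overlapped (all SD, n = 3).

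For the rest of the pathway 103 other genes in 7 lists were followed, of which 100 were measured at the level required for testing; PLD1, INPP4B and MITF were not. In H9, 15 of the 100 rose and 33 fell, against 20.4% and 23.9% of all genes tested, with a median change of -0.12 against -0.01 over all genes. With a filter of 5 FPKM, which tests fewer genes, 21 fell. In RUES-2, 19 rose and 19 fell, against 23.1% and 23.6% of all genes, with a median of 0.02 against 0.01. These shares of all genes apply to each list below. Of these calls, 30 of 48 in H9 and 28 of 38 in RUES-2 held in each of the 12 fits that left out 1 library. As for the members, the sums of the fibroblast, neural and pluripotent markers above moved with state, though single markers went the other way. The part of such cells in these counts was not tested.

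**Figure D4:**
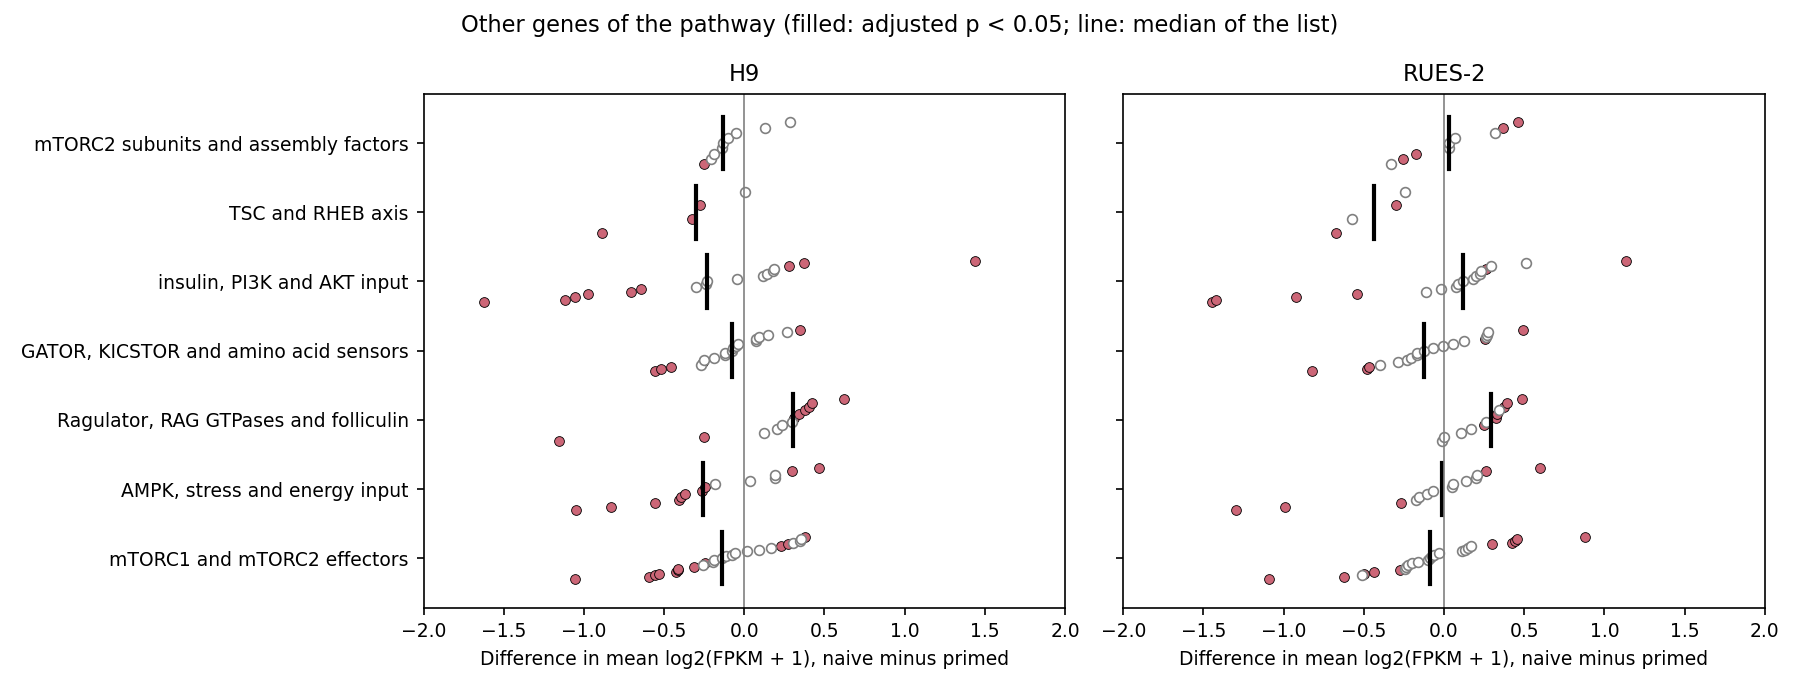
log2 changes between naive and primed cells of the measured genes of each pathway list, in H9 and in the libraries labelled RUES-2, with the median of each list. The Ragulator and RAG list has a median near 0.30 in both, and the TSC and RHEB list a median of -0.30 in H9 and -0.44 in RUES-2.

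The Ragulator and RAG genes, whose products tether mTORC1 to the lysosome and report amino acids, were measured for all 12 members of their list. Of these, 6 rose and 2 fell in H9 (median 0.30), against 20.4% and 23.9% of all genes, and 6 rose and 0 fell in RUES-2 (median 0.29), against 23.1% and 23.6%. LAMTOR1, the lipid-anchored Ragulator scaffold, went from 61.1 ± 5.08 to 80.9 ± 1.61 FPKM in H9 (SD, n = 3; 0.40, limma adjusted p = 0.00159) and from 64.9 ± 4.56 to 85.4 ± 2.70 in RUES-2 (0.39; 0.00171). RRAGC, a RAG GTPase of the heterodimer, rose by 0.43 (0.00545) and 0.37 (0.00970), and RRAGB, its other partner, by 0.62 (0.00321) in H9, with 0.26 (0.120) in RUES-2. RRAGD, the paralogue of RRAGC, fell in H9 from 2.55 ± 0.561 to 0.586 ± 0.112 FPKM (-1.15; limma adjusted p = 0.000941) and stood at 2.57 ± 0.755 and 2.53 ± 0.728 in RUES-2 (-0.01; 0.965); with a pseudocount of 0.1 the H9 change was -1.94. The other gene that fell in H9 was LAMTOR4, named here after its values were seen, and its call ended without primed H9 replicate 3, naive H9 replicate 1 or naive H9 replicate 2 (adjusted p up to 0.0967). In RUES-2 the call of RRAGA ended without any 1 of 4 RUES-2 libraries (up to 0.115).

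In the TSC and RHEB list 3 of 4 measured genes fell in H9 and 2 of 4 in RUES-2, against 23.9% and 23.6% of all genes, and 0 rose (medians -0.30 and -0.44). RHEB, the GTPase that activates mTORC1, went from 54.1 ± 3.66 to 42.9 ± 1.5 FPKM in H9 (SD, n = 3; -0.33, limma adjusted p = 0.0192) and from 49.2 ± 3.39 to 39.9 ± 5.11 in RUES-2 (-0.30; 0.0261). PLD2, a phospholipase D that makes phosphatidic acid, fell by 0.28 (0.0386) in H9 and by 0.67 (0.000303) in RUES-2, and the RHEB-like GTPase RHEBL1 fell by 0.89 (0.0161) in H9, with -0.57 (0.0868) in RUES-2. The H9 calls of RHEB and RHEBL1 ended without primed H9 replicate 3 or naive H9 replicate 3 (up to 0.0654 and 0.0651). The RUES-2 call of RHEB ended without primed RUES-2 replicate 1 or 3 or naive RUES-2 replicate 2 (up to 0.0928; -0.19 without the last), and the H9 call of PLD2 without any 1 of 7 libraries, 5 of them H9 (up to 0.147). The PLD2 call in RUES-2 held throughout.

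Among 17 measured genes of insulin, PI3K and AKT input, 3 rose and 6 fell in H9 (median -0.23), and 2 rose and 4 fell in RUES-2 (median 0.12). INSR, the insulin receptor, went from 5.12 ± 1.54 to 0.955 ± 0.180 FPKM in H9 (SD, n = 3; -1.62, limma adjusted p = 4.9e-05) and from 5.35 ± 0.605 to 1.33 ± 0.231 in RUES-2 (-1.45; 9.59e-05). IRS1, the adaptor of that receptor, fell by 0.64 (0.00055) and 0.93 (5.24e-05). PHLPP1, a phosphatase of AKT, fell by 1.11 (0.000107) and 1.42 (2.21e-05). PIK3R1, the regulatory subunit of PI3K, rose by 1.44 (0.000165) and 1.14 (0.000638). IGF1R, the receptor of insulin-like growth factors, was also among the genes that fell, by 0.97 (0.00218) in H9 and by 0.55 (0.0364) in RUES-2, where its call ended without any 1 of 5 RUES-2 libraries (up to 0.120). IRS2, another adaptor, fell in H9 from 3.34 ± 0.391 to 1.09 ± 0.244 FPKM (-1.06; 0.00039), with 3.18 ± 0.516 and 4.17 ± 1.02 in RUES-2 (0.30; 0.140). IGF1R, IRS2 and the other genes that rose in H9, PDPK1 and PHLPP2, were named after their values were seen, and the calls of PDPK1 and PHLPP2 ended without any 1 of 3 and 7 libraries (up to 0.0908 and 0.150).

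Of 19 measured GATOR, KICSTOR and amino acid sensor genes, 1 rose and 4 fell in H9 (median -0.08), and 2 rose and 3 fell in RUES-2 (median -0.12). WDR59, a GATOR2 subunit, fell by 0.56 (limma adjusted p = 0.000244) in H9 and by 0.47 (0.000646) in RUES-2. SLC38A9, the lysosomal arginine sensor, fell by 0.52 (0.0115) and 0.48 (0.0157), the RUES-2 call ending without primed RUES-2 replicate 2 or naive RUES-2 replicate 2 (up to 0.0606). GATSL3, the arginine sensor CASTOR1, fell by 0.82 in RUES-2 (0.00344), with -0.12 (0.611) in H9. C7orf60 (BMT2, also called SAMTOR), the S-adenosylmethionine sensor, fell by 0.46 in H9 (0.0369), a call that ended without any 1 of the 6 H9 libraries (up to 0.105) and whose value was -0.74 with a pseudocount of 0.1 and -0.29 under quantile normalization, with -0.40 (0.0612) in RUES-2. The genes that rose were SEC13 in both and SEH1L in RUES-2, whose products also belong to the nuclear pore, and MIOS fell in H9, a call that ended without any 1 of 4 H9 libraries (up to 0.0755). These 3 were named after their values were seen.

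Of 14 measured AMPK, stress and energy genes, 2 rose and 8 fell in H9 (median -0.25), and 2 rose and 3 fell in RUES-2 (median -0.01). DDIT4L, the paralogue of DDIT4, went the same way as DDIT4, from 2.74 ± 0.614 to 0.801 ± 0.253 FPKM in H9 (SD, n = 3; -1.05, limma adjusted p = 0.00184) and from 4.20 ± 1.09 to 1.61 ± 0.513 in RUES-2 (-0.99; 0.00234). Of the AMPK regulatory subunits, PRKAG1 rose by 0.47 (0.00217) and 0.60 (0.000432), and PRKAG2 fell by 0.56 (0.0112) and 1.30 (7.22e-05). PRKAA2, a catalytic subunit, fell by 0.83 (0.00779) in H9, from 1.76 to 0.543 FPKM, with -0.18 (0.504) in RUES-2. At these low levels the pseudocount sets the size of the change: with 0.1 in place of 1, it was -1.52 for PRKAA2 and -1.67 for DDIT4L in H9. The other genes that rose were GSK3A in H9 and PRKAA1 in RUES-2, and CAB39 also fell in RUES-2, all named, like the genes in the next sentence, after their values were seen. The calls of GSK3A, STRADA, STRADB, CAB39L and PRKAB2 in H9 and of PRKAA1 and CAB39 in RUES-2 ended without at least 1 library (adjusted p up to 0.143, 0.0800, 0.0828, 0.119, 0.0831, 0.118 and 0.105).

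Of 9 measured mTORC2 and assembly genes, 0 rose and 1 fell in H9 (median -0.13), and 2 rose and 2 fell in RUES-2 (median 0.03). TTI1, a partner of the kinase chaperone TELO2, fell by 0.25 in H9 (limma adjusted p = 0.0107) and by 0.18 in RUES-2 (0.0466), the latter call ending without any 1 of 10 libraries (up to 0.126). TTI2, of the same chaperone complex, rose by 0.46 in RUES-2 (0.00369), with 0.13 (0.314) in H9. RUVBL1, an AAA ATPase, rose by 0.37 in RUES-2 (0.0381), a call that ended without any 1 of 6 libraries (up to 0.137), and WAC fell by 0.26 there (0.00662). The mTORC2 subunits on the list, MAPKAP1, PRR5 and PRR5L, passed in neither line, with changes of -0.10, -0.14 and -0.19 in H9 and 0.03, 0.32 and -0.33 in RUES-2, beside -0.58 and -0.44 for RICTOR.

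Among 25 measured effectors, 3 rose and 9 fell in H9 (median -0.14), and 5 rose and 5 fell in RUES-2 (median -0.08). EIF4EBP3, a paralogue of EIF4EBP1, went from 6.24 ± 2.75 to 2.31 ± 0.291 FPKM in H9 (SD, n = 3; -1.06, limma adjusted p = 0.00441) and from 8.13 ± 0.714 to 3.29 ± 0.506 in RUES-2 (-1.09; 0.00333). PDCD4, an inhibitor of the helicase EIF4A, fell by 0.59 (0.00143) and 0.62 (0.000991). MAF1, a repressor of RNA polymerase III, fell by 0.53 (3.58e-05) and 0.44 (0.000126). LPIN1, a phosphatidate phosphatase, rose by 0.88 in RUES-2 (0.000782), from 3.83 ± 0.794 to 7.81 ± 0.134 FPKM, and stood at 4.11 ± 0.801 and 4.14 ± 0.572 in H9 (0.01; 0.949). The genes that rose in both were RPS6KB1, the S6 kinase, by 0.23 (0.0146) and 0.30 (0.00351), and the initiation factors EIF4G1 and EIF4A1, with RPS6KB2 also rising in RUES-2, where LARP1 and TFE3 fell. These genes and those in the next sentence were named after their values were seen. The calls of EIF4A1, RPS6, EEF2K, LARP1 and PRKCA in H9 and of RPS6KB2 in RUES-2 ended without at least 1 library (adjusted p up to 0.143, 0.103, 0.155, 0.0556, 0.0529 and 0.107).

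Genes whose levels followed each member most closely over the 12 libraries were found by Pearson's r of log2(FPKM + 1), given as a description since libraries of a group share their culture conditions. RPTOR was followed by GLE1 (0.982), AUP1 (0.975) and SLC35B2 (0.971), and RICTOR by ZSWIM4 (0.985), VAV3 (0.983) and NPTX1 (0.981). AKT1S1 was followed by BAG1 (0.985), TXNL4B (0.979) and FARSB (0.973), and DDIT4 by RHNO1 (0.979), SH3D21 (0.971) and CHDH (0.971). MLST8 was followed by RUVBL2 (0.973), an ATPase of the assembly list, FANCE (0.964) and LONP1 (0.936). EIF4EBP1 was followed by CLDN1 (0.961) and C1orf192 (0.948), and MTOR by GSTM2 (0.939), MMS22L (0.929) and CROCC (0.929). The closest genes to TSC2 were INIP (0.952), AP4M1 (0.918) and KANSL3 (0.918), and to DEPTOR UQCRB (0.932), JDP2 (0.908) and NMU (0.908). TSC1, the member with the narrowest span, had the weakest neighbours, PTPRD (0.871), SRGAP2 (0.866) and MFSD8 (0.840).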

How the data were processed

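For each library the authors deposited a table whose headers name FPKM, lower and upper confidence bounds and a status per gene, while the design text says RPKM. The submitters' processing notes list bcl2fastq 2.17.1.14, TopHat2 2.1.1 and hg19, and which program computed FPKM is not stated. Each table held 25278 entries for 23615 symbols. Where a symbol had several loci (554 symbols) the one with the highest mean was taken, and 2 symbols without an OK status were left out. No 2 libraries were identical, and 0 files lacked a sample. Read counts and depth are not known.

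limma 3.58.1 in R 4.3.3 was run on log2(FPKM + 1) of genes that reached 1 FPKM in 3 or more libraries, two-sided, with a variance trend and 1 mean per group, in 6 comparisons. The script was tested on simulated data. Ratios were permuted exactly within lines. Python 3.11.15, numpy 2.4.6, pandas 2.3.3 and matplotlib 3.10.9 were used. Alternatives were other pseudocounts, filters, scalings, variance settings, summed loci, only the groups compared, a replicate block and leaving out each library. An alternative without the 3 libraries that did not match was chosen after seeing the data. Deviations of same-numbered primed and naive libraries correlated only weakly, at -0.0537 to 0.0825, and the main fit did not pair them. In RUES-2, but not in H9, each primed library correlated best with the naive library of its own number. The members and pathway lists were chosen with earlier results of these data known. Named were all members, up to 4 called genes per list with the largest mean change, untested genes of a list, the 3 genes most correlated with each member, and genes overlapping a member. Coordinates are 1-based on hg19 as deposited. Promoter sequences are from RefSeq on GRCh38.p14. Protein sequences were not used here. Some genes that these rules name are not reported here.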

Additional observations from a re-analysis of the deposited data

Results flagged for a closer look

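Among the 10 members and 100 measured pathway genes, the change between states differed between the lines for 5, 1 of them a member. This was a test of the difference itself (limma, RUES-2 minus H9, on the log2 scale). Among all genes tested, 3.77% had a higher and 1.93% a lower difference called. The share called here was thus near that of genes in general. EIF4EBP1, the 4E-binding protein, differed by 0.48 (adjusted p = 0.0368), with all 3 naive libraries below the primed ones in H9 and all 3 above them in RUES-2. IRS2, an adaptor of the insulin receptor, differed by 1.35 (0.00723), RRAGD, a RAG GTPase, by 1.14 (0.0387), LPIN1, a phosphatidate phosphatase, by 0.86 (0.0374) and TFE3, a transcription factor of lysosomal genes, by -0.66 (0.0336). Over the fits that left out 1 library the adjusted p ran from 0.0364 to 0.102 for EIF4EBP1, 0.0337 to 0.0910 for RRAGD, 0.0227 to 0.0934 for LPIN1, 0.0301 to 0.0768 for TFE3 and 0.00611 to 0.0235 for IRS2. The calls of RRAGD and LPIN1 were also lost with no filter (0.0517 and 0.0520) and under quantile normalization (0.0593 and 0.0562), and that of LPIN1 with the filter of 5 FPKM (0.0524). With a pseudocount of 0.1 the difference of RRAGD was 1.93. All 5 differences use the libraries labelled RUES-2, of which 3 did not match the others, so line and state cannot be told apart in them.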

How the results depend on the processing

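Under settings other than leaving out a library, 327 values of single members kept their direction and side of the threshold, 8 lost their call and 2 changed sign; with 1 library left out the counts were 311, 17 and 8. DDIT4 and RICTOR kept their calls wherever tested; the filter of 5 FPKM removed RICTOR, leaving 1 member lower in RUES-2 and 1 in the mean of both lines. The cause of the changes below was not tested. TSC1 in H9 turned to 0.00897 under median-ratio and 0.0586 under quantile scaling, RRAGD in RUES-2 to 0.00519 and 0.0741, and GATSL3 in H9 to 0.00696 under quantile scaling.

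Genes called under the filter of 5 FPKM numbered 424 for the difference between lines, 102 for RUES-2 against H9 in primed and 1469 in naive cells. The main counts were 823, 262 and 2289. The primed count was 27 with only the 2 groups compared, 170 under the replicate block and 96 without the libraries that did not match. With only the 2 groups compared 0 members were higher in naive H9, 0 in primed RUES-2 against H9 and 4 in naive RUES-2 against H9. Scaling without short RNA genes left 1 member higher and 1 lower in the naive line comparison. Median-ratio scaling, scaling without short RNA genes and the replicate block each left 0 members for the difference between lines. Shares of all genes called by direction are not given for these settings, so these member counts are not set against genes in general. Those of the naive line comparison also use the libraries that did not match. Replicate numbers are shared in the labels, but same-numbered libraries correlated only weakly. Under the block EIF4EBP1's difference had a limma adjusted p of 0.0523.

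Leaving out each library in turn gave, for changes that turned sign, -0.148 to 0.0225 for MTOR, -0.687 to 0.00144 for DEPTOR, -0.0787 to 0.0632 for TSC1, -0.211 to 0.00149 for GATSL3 and -0.114 to 0.114 for LPIN1 in H9. In RUES-2 the ranges were -0.434 to 0.154 for DEPTOR, -0.0664 to 0.157 for MLST8, -0.0119 to 0.188 for TSC2, -0.198 to 0.120 for RRAGD and -0.346 to 0.0110 for PRKAA2. Members called ranged from 1 to 2 higher in naive H9, 2 to 3 lower in the mean of both lines, 0 to 1 for the difference, 0 to 1 higher in primed RUES-2 against H9 and 1 to 3 in naive. Genes called, of 14428 tested, ranged from 5049 to 6683 for naive against primed H9 and 7810 to 8694 for the mean of both lines. They ranged from 408 to 920 for the difference, 61 to 385 for the primed and 1213 to 2811 for the naive line comparison. DEPTOR rests on the fewest fragments of the members, and the part of depth in its spread between libraries was not tested.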
